A study of Homo sapiens with 12 samples.

Results

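The quantity described here is how far the response to fulvestrant in PEO1 cells with p53 knocked down differed from the response in cells with the control vector. For each gene it is the log2 change from untreated to fulvestrant in the knockdown minus the same log2 change in the control. A positive value therefore means a higher response in the knockdown and a negative value a lower one. Of 57773 entries in the deposited table, 15715 had enough reads for the test, and every one of these was kept.

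PEO1 is an established human ovarian cancer cell line, and the title of the series calls its p53 mutant. The 4 groups of 3 RNA-seq libraries were pLKO1 cells untreated at 0 h, pLKO1 cells given 10 μM fulvestrant for 48 h, shp53 cells untreated at 0 h, and shp53 cells given 10 μM fulvestrant for 48 h. pLKO1 names the empty lentiviral vector and shp53 a hairpin RNA against the p53 transcript, and cells of both kinds grew in puromycin. Fulvestrant was given with 100 pM of the estrogen estradiol (E2), per the labels, and the sources used here do not say whether untreated cells received estradiol. Treated and untreated cells thus differed in drug and in time point, which cannot be told apart. The labels name 1 hairpin and do not say whether a line is 1 clone. Nor do they say that the 3 libraries of each group are independent cultures. The p-values thus reflect the variation among these libraries alone, and this may be technical.

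Estrogen receptor alpha, the product of ESR1, is a transcription factor that binds DNA when occupied by estradiol and activates genes such as GREB1 and PGR as well as genes that drive cells into the cycle. Fulvestrant binds the receptor in place of estradiol, blocks it and leads to its degradation, and in estrogen-dependent cells proliferation genes fall after exposure. p53 is a stress-responsive transcription factor whose wild-type form activates CDKN1A and MDM2, while cancer mutants often lose that activity.

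Of 17 measured markers of ovarian carcinoma lines, 15 were tested, among them PAX8 at 69.8 to 137 CPM (normalised read counts scaled to a common library total) and EPCAM at 367 to 453 CPM. Tested did not mean high, as MUC1 was at 0.0882 to 0.704 CPM, CLDN3 at 0.552 to 14.7 CPM and WT1 at 9.09 to 16.2 CPM. SOX17 was at 0 in every library and FOLR1 at or below 0.0874 CPM.

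Library totals lay between 21581887 and 28481541 counts. The libraries differed in how read counts depended on the GC content of the transcripts. The Spearman correlation between a library's deviation from the mean of all libraries and transcript GC content ranged from -0.615 to 0.564 over the 12 libraries, and was -0.162, -0.55 and -0.0366 in the 3 treated knockdown libraries. The difference of responses followed the same property, with a Spearman correlation of -0.375 with GC content across genes. Its median was 0.05 in the fifth of genes with the lowest GC content and -0.25 in the fifth with the highest. Results are therefore given as fitted, and also after each library's GC trend had been removed (GC correction), which left medians between -0.01 and 0.003 in the 5 groups. The trend was taken from each library's deviation from the mean of all libraries, so medians near 0 follow from the procedure. Any effect of drug or line that follows GC content would be removed with it. What produced the trend was not tested.

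**Figure D1:**
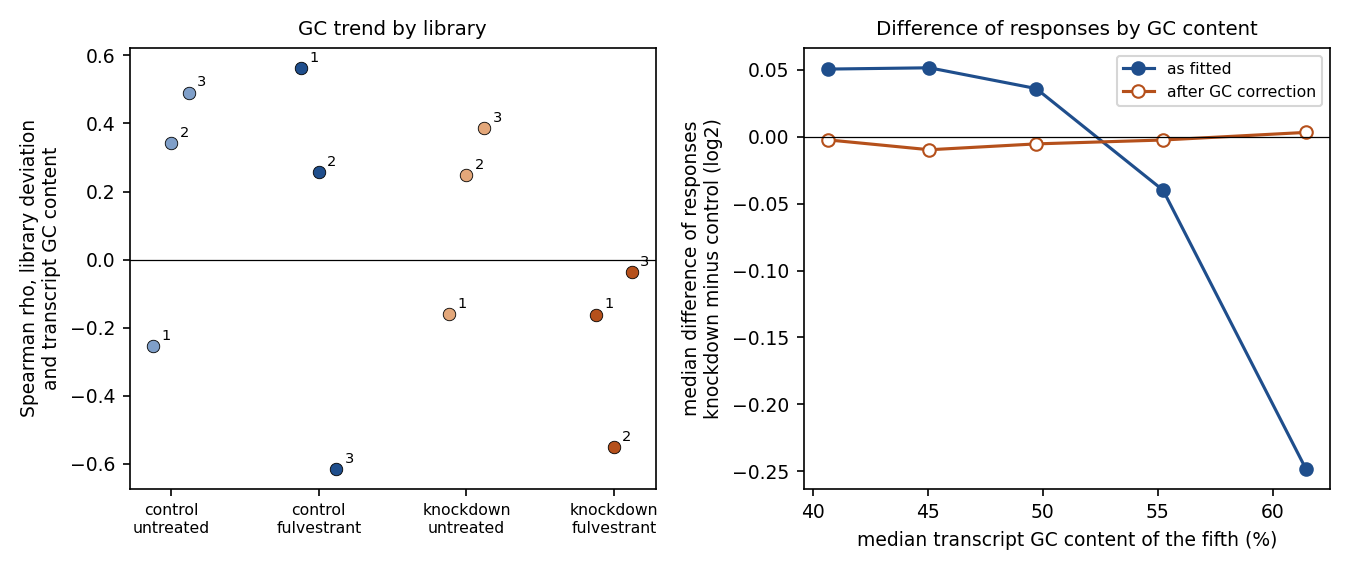
Left, Spearman correlation between transcript GC content and each library's deviation from the mean of all libraries, with 3 libraries per group marked by replicate number. Right, median difference of responses (log2) in 5 equal groups of genes ordered by GC content: the fitted medians fall to -0.25 in the last group and lie near 0 after the correction.

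The responses of the 2 lines were largely of the same direction. Fulvestrant changed 4363 of 15715 genes in the control (27.8%) and 6431 in the knockdown (40.9%) at an adjusted p under 0.05. Both lists held 3983 genes, which is 91.3% of the control list and 61.9% of the knockdown list, and 3981 of these moved in the same direction. The 2 responses share no library. Across the 10179 genes whose mean log2 CPM was 3 or more, Pearson's r was 0.918, Spearman's rho 0.917 and the slope of the knockdown response on the control response 1.29. Across all 15715 genes they were 0.757, 0.823 and 0.985. These are descriptions across genes, which are not independent replicates.

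**Figure D2:**
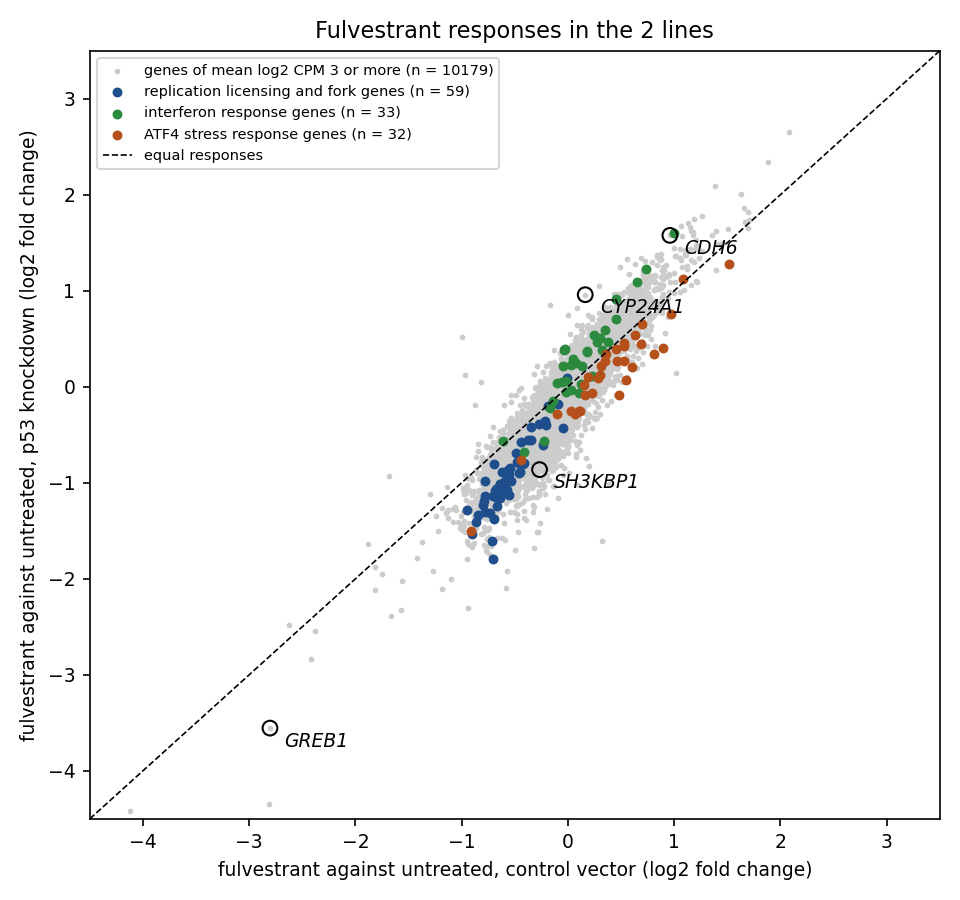
Log2 change with fulvestrant in control cells (horizontal) and knockdown cells (vertical), 1 point per gene of mean log2 CPM of at least 3, with 3 gene lists in colour and the 4 genes past the threshold circled. Replication genes other than ORC4 lie below the line of equal responses and most ATF4 stress genes lie below it on the rising side.

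The difference of responses itself passed the threshold for 4 of 15715 genes (0.0255%). SH3KBP1 and GREB1 were lower in the knockdown response (0.0127%), and CYP24A1 and CDH6 were higher (0.0127%). At an unadjusted p under 0.05 there were 1171 genes (7.45%), 652 higher and 519 lower. After GC correction 591 genes passed at the adjusted threshold (3.76%), 174 higher and 417 lower, and all 4 genes were among them. The count without correction was 0 in 10 of the 12 fits that left out 1 library and so had fewer libraries, 7 without the pLKO1 fulvestrant replicate 3 and 1 without the shp53 untreated replicate 3. The folds moved little over all alternatives, from -0.80 to -0.70 for GREB1, -0.65 to -0.56 for SH3KBP1, 0.72 to 0.86 for CYP24A1 and 0.55 to 0.70 for CDH6. Without the 4 libraries of lowest GC trend, 1 from each group, 62 genes passed, 24 higher and 38 lower, 3 of the 4 among them.

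GREB1 is an early estrogen-induced gene and a cofactor of the receptor. Its level was 41.0, 44.1 and 38.5 CPM in untreated control cells and 64.1, 65.4 and 69.1 CPM in untreated knockdown cells. With fulvestrant it was 5.82, 6.03 and 5.82 CPM in the control and 5.70, 5.28 and 5.92 CPM in the knockdown. The untreated groups did not overlap and the treated groups did, so the 2 lines started at different levels and reached similar ones. The log2 response was -2.80 (SE 0.0695) in the control and -3.56 (SE 0.0695) in the knockdown. Their difference was -0.75 (SE 0.0983, 95% interval -0.97 to -0.53, adjusted p = 0.0478).

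SH3KBP1 encodes CIN85, an adaptor in the internalisation of receptor tyrosine kinases. It stood at 67.7, 65.7 and 67.0 CPM in untreated control cells and at 97.8, 100.4 and 93.2 CPM in untreated knockdown cells. Treated cells held 54.6, 55.8 and 56.1 CPM in the control and 52.2, 54.2 and 53.8 CPM in the knockdown. As with GREB1, the lines were far apart before treatment and close after it, although the treated groups of SH3KBP1 did not overlap. The responses were -0.27 and -0.86 and their difference -0.60 (SE 0.0633, 95% interval -0.74 to -0.46, adjusted p = 0.0265).

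CYP24A1 encodes the enzyme that inactivates vitamin D hormone. Its level was 49.9, 47.5 and 53.8 CPM in untreated and 58.6, 51.6 and 59.1 CPM in treated control cells, and these groups overlapped. In the knockdown it was 40.7, 40.1 and 41.4 CPM untreated and 77.8, 80.3 and 79.4 CPM treated. The knockdown was thus below the control before treatment and above it after, without overlap at either time. The responses were 0.16 (adjusted p = 0.0869) and 0.96 (adjusted p = 1.62e-06), and their difference was 0.80 (SE 0.0912, 95% interval 0.59 to 1.00, adjusted p = 0.0277).

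CDH6 encodes cadherin 6, a cell adhesion protein of kidney and ovarian carcinoma cells. It rose in the control from 31.0, 28.7 and 28.4 CPM to 55.1, 55.4 and 60.9 CPM. In the knockdown it rose from 24.0 to 25.03 CPM to 74.6, 72.8 and 73.4 CPM. The knockdown libraries again lay below the control before treatment and above it after. The difference of the responses, 0.96 and 1.58, was 0.62 (SE 0.0808, 95% interval 0.44 to 0.80, adjusted p = 0.0478). Over 25 alternative settings the 4 genes kept their sign in every one, with adjusted p up to 0.375. They stayed under the threshold in 11 (SH3KBP1), 10 (CYP24A1), 7 (CDH6) and 6 (GREB1) of them.

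**Figure D3:**
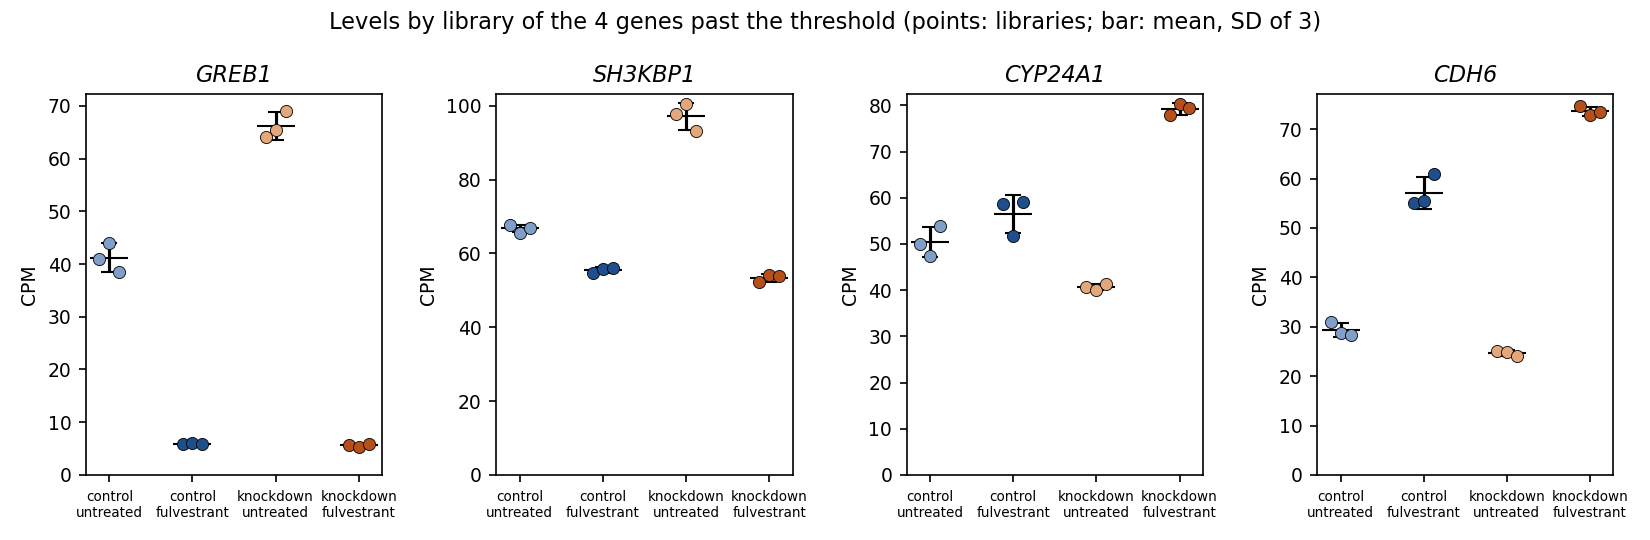
Level (CPM) in each of the 12 libraries for the 4 genes past the threshold, with the mean and SD of 3 libraries. GREB1 and SH3KBP1 differ between the lines mainly before treatment, whereas CYP24A1 and CDH6 are lower in the knockdown before treatment and higher after.

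Other genes with receptor-linked roles varied. ESR1 was 134 ± 5.79 CPM in the untreated control and 154 ± 4.24 CPM with fulvestrant, against 164 ± 4.34 and 213 ± 0.996 CPM in the knockdown (SD, n = 3). Its difference of responses was 0.18 (SE 0.0644, adjusted p = 0.464). PGR, the progesterone receptor, had 0 to 6 counts per library and was not tested. Of 47 tested estrogen receptor targets, GREB1 alone passed the threshold. Unadjusted p was under 0.05 for 10 lower and 4 higher, against 3.3% and 4.15% of all genes. The list's median was -0.20 as fitted and -0.06 after GC correction, beside -0.01 and -0.003 over all tested genes, so most of its displacement was not present after the correction. Without pLKO1 fulvestrant replicate 1 the fitted median was -0.099. After the correction 9 members passed lower (2.65% of all genes did) and 1 passed higher (1.11%).

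AREG, the EGF receptor ligand amphiregulin, held 6.37, 5.39 and 5.73 CPM in untreated control cells and 12.3, 12.4 and 11.8 CPM in untreated knockdown cells. Treated libraries held 3.03, 2.54 and 2.46 CPM in the control and 2.76, 3.35 and 2.91 CPM in the knockdown. The pattern was that of GREB1, with untreated groups apart and treated groups overlapping. The difference was -0.89 (SE 0.161, adjusted p = 0.138), and -0.95 (adjusted p = 0.00754) after GC correction. SLC26A2, a sulfate transporter, averaged 122 CPM untreated and 136 CPM treated in the control, and 126 and 107 CPM in the knockdown. Its difference was -0.39 (adjusted p = 0.339), and -0.45 (adjusted p = 0.000457) after GC correction.

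Genes that copy DNA had a difference of responses below 0 in nearly every member. Origin licensing begins when ORC, CDC6 and CDT1 load the MCM2 to MCM7 helicase on DNA, and CDC45 and GINS join it to start the fork, where polymerases, the RFC clamp loader and PCNA then act. These genes are known targets of the E2F transcription factors, which RB holds in check until cyclin-dependent kinases act. Some promoters are shown because several members were lower together in the knockdown response. GINS4 apart, they are those of the 2 genes of smallest p in the licensing, fork and nucleotide synthesis lists. They are the 250 bases before the RefSeq start (GRCh38.p14), 5′ to 3′ along the gene, with capitals for an E2F-type motif on either strand: TTT, then 2 bases each C or G, then CG, then C or G.
POLA2 (chr11:65261712-65261961, plus strand): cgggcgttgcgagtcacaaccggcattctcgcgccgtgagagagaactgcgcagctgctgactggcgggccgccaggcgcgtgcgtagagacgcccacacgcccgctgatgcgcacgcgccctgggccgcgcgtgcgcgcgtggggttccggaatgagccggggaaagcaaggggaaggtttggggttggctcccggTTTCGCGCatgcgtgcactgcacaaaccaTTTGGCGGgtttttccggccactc
CDC45 (chr22:19479670-19479919, plus strand): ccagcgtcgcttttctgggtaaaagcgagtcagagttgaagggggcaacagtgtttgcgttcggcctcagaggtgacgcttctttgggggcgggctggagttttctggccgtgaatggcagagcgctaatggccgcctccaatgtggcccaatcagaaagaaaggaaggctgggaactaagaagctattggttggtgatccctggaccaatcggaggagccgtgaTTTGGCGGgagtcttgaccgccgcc
TYMS (chr18:657403-657652, plus strand): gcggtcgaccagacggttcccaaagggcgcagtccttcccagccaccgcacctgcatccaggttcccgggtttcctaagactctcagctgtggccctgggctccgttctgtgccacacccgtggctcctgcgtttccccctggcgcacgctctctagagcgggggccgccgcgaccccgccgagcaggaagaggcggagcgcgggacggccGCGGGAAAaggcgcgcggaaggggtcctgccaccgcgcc
RRM2 (chr2:10122489-10122738, plus strand): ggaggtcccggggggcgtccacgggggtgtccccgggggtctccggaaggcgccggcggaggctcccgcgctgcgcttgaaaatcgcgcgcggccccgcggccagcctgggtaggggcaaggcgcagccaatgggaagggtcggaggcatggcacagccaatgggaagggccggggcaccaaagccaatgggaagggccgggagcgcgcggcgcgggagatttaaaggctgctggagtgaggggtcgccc
RFC5 (chr12:118016453-118016702, plus strand): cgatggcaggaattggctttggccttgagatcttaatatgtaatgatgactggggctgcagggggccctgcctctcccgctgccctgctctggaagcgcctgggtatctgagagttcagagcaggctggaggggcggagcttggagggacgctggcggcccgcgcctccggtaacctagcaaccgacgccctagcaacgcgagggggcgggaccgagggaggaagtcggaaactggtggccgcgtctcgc
The search covered 8 sequences, and overlapping matches would each count. It was widened after these promoters had been seen, from 4 sequences that end in C. POLA2 held 2 matches, CDC45 and TYMS held 1 each, and RRM2 and RFC5 held none in this window. A match was present in 8 of 22 licensing genes with a promoter in the table and in 10 of 29 fork genes. The share was 8.23% of 10400 promoters of tested genes and 5.25% of all 27305. With the first 4 sequences the counts were 6 of 22 and 8 of 29, beside 4.35% and 2.79%. For the other lists searched, a match was present in 4 of 26 nucleotide synthesis genes, 5 of 31 recombination genes, 2 of 44 G2 and mitosis genes, 4 of 37 interferon response genes (10.8%) and 1 of 36 estrogen receptor targets. The first 4 sequences gave 1, 2, 2, 3 and 0 in these lists, so the nucleotide list (3.85%) was then below the 4.35% of tested genes. A match is a description of letters and not a bound site.

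The licensing list held 26 tested genes, of which 25 had a difference below 0, beside 8049 of all 15715 genes. Its median was -0.40 as fitted and -0.45 after GC correction. The median response was -0.65 in the control and -1.05 in the knockdown, and 19 members fell in the control and 22 in the knockdown, beside 14.3% and 19.6% of all genes. No member's difference passed the threshold as fitted, while 15 were lower at an unadjusted p under 0.05 (3.3% of all genes). After GC correction 16 members passed lower (2.65%). Without the 4 libraries of lowest GC trend the median was -0.42 and 6 passed.

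GINS4, a subunit of the helicase cofactor GINS, held 55.2, 52.1 and 48.7 CPM in untreated control and 50.1, 49.9 and 47.1 CPM in untreated knockdown cells. Fulvestrant libraries held 33.2, 31.8 and 33.1 CPM in the control and 21.3, 21.2 and 19.9 CPM in the knockdown. The untreated groups overlapped and the treated ones did not, the reverse of GREB1. The difference was -0.57 (SE 0.0852, adjusted p = 0.0932), and -0.60 (adjusted p = 0.000659) after GC correction.

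CDC45, which links the helicase to the fork, behaved alike. It was 71.3, 69.0 and 68.7 CPM in the untreated control and 67.4, 72.7 and 67.3 CPM in the untreated knockdown. With fulvestrant it was 42.2, 41.7 and 37.8 CPM in the control and 28.3, 27.1 and 28.6 CPM in the knockdown. Here too the lines overlapped before treatment and not after it. The difference was -0.52 (SE 0.082, adjusted p = 0.103), and -0.56 (adjusted p = 0.0008) after GC correction.

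The helicase subunits were close to each other. The differences were -0.58 for MCM2, -0.43 for MCM3, -0.43 for MCM4, -0.69 for MCM5, -0.39 for MCM6 and -0.47 for MCM7, none past the threshold as fitted. After GC correction MCM5 (adjusted p = 0.222) was the subunit that did not pass. In the origin recognition complex, ORC1 (-0.40) and ORC6 (-0.38) passed after the correction, whereas ORC2 (-0.13), ORC3 (-0.01), ORC4 (0.10) and ORC5 (-0.38) did not. CDT1, the loading factor, had the largest fitted difference of the list and the widest interval (-1.41, SE 1.00, adjusted p = 0.87). Its interval and those of RECQL4, CHTF18 and POLD1 were the widest and included 0. They were not the only ones, since 15 of 26 licensing and 23 of 36 fork genes had an unadjusted p under 0.05. The remaining members were not placed on either side of 0.

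All 36 tested genes of the replication fork and chromatin assembly had a difference below 0, from -1.22 to -0.07. The median was -0.38 as fitted and -0.40 after GC correction, between a median response of -0.56 in the control and -0.97 in the knockdown. As fitted none passed the threshold and 23 were lower at an unadjusted p under 0.05 (3.3% of all genes). After GC correction 24 passed lower (2.65%), and without the 4 libraries of lowest GC trend 6 passed. The 24 became 19 with a replicate block added to the correction and 15 with a block within time point. POLA2, the regulatory subunit of the polymerase that lays the primer, was 72.6, 70.2 and 71.8 CPM in untreated control and 69.2, 67.5 and 68.7 CPM in untreated knockdown cells. With fulvestrant it was 50.7, 52.1 and 52.8 CPM in the control and 35.0, 37.1 and 38.0 CPM in the knockdown. The groups did not overlap at either time, with the wider gap after treatment. Its difference was -0.44 (SE 0.0664, adjusted p = 0.0932), and -0.47 (adjusted p = 0.000975) after GC correction.

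Within the clamp loader RFC2, RFC3, RFC4 and RFC5 had differences of -0.36, -0.38, -0.33 and -0.37, and RFC1, its large subunit, of -0.09. The single-strand binding subunits RPA1, RPA2 and RPA3 were nearer to 0 at -0.07, -0.19 and -0.12, and none of them passed after GC correction. ATAD2, a chromatin ATPase, averaged 333 CPM in treated control and 254 CPM in treated knockdown cells, from 455 and 444 CPM untreated. Its difference was -0.35 (SE 0.101, adjusted p = 0.325), and -0.40 (SE 0.0316, adjusted p = 0.000391) after the correction.

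**Figure D4:**
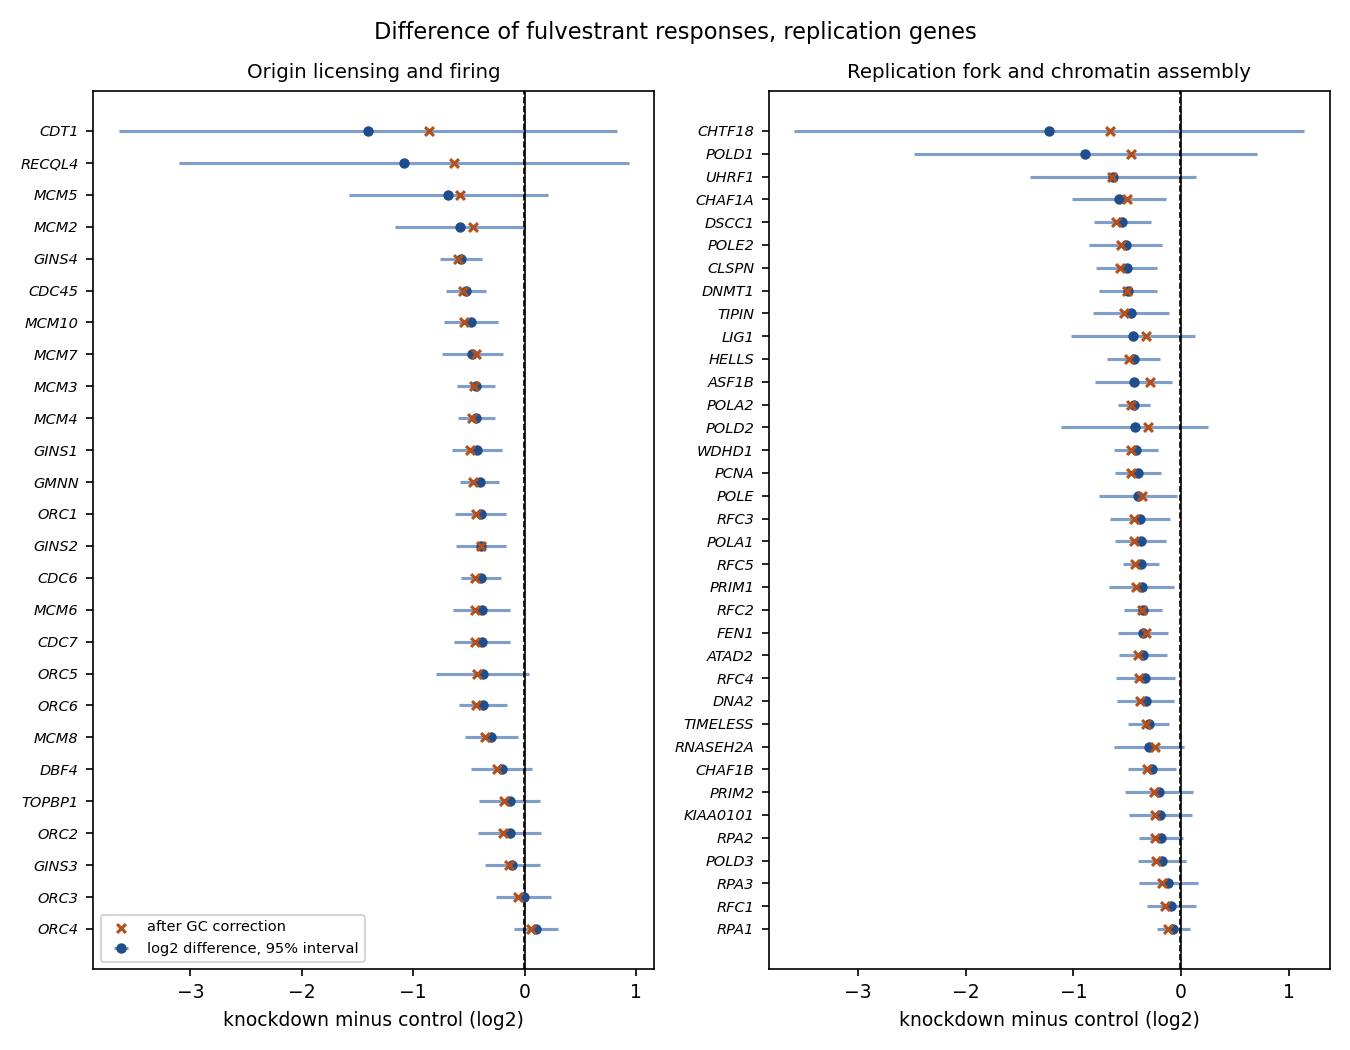
Difference of responses (log2, point) with its 95% interval for each tested gene of the licensing list (left) and the fork list (right), and the value after GC correction (cross). The solid line marks 0 and the dashed line the median of all tested genes: 25 of 26 and 36 of 36 points lie below 0, and the intervals of CDT1, RECQL4, CHTF18 and POLD1 are the widest.

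Nucleotide synthesis genes supply the fork. Of 30 tested, 28 were below 0, the median was -0.24 as fitted and -0.23 after GC correction, and 8 were lower at an unadjusted p under 0.05 (3.3% of all genes). That count was 5 without shp53 fulvestrant replicate 3 and 12 without pLKO1 untreated replicate 1. None passed as fitted and 13 passed lower after the correction (2.65%), or 9 with a block within time point added to it. RRM2, the regulated subunit of ribonucleotide reductase, was 313 to 356 CPM in untreated control and 310 to 326 CPM in untreated knockdown cells. It was 213 to 237 CPM in treated control and 156 to 163 CPM in treated knockdown cells, where the lines did not overlap. Its difference was -0.43 (SE 0.0825, adjusted p = 0.168), and that of TYMS, thymidylate synthase, -0.39 (SE 0.0776, adjusted p = 0.168). After the correction the adjusted p was 0.000391 and 0.00199.

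Homologous recombination and Fanconi genes repair breaks at forks. Of 37 tested, 35 were below 0 and the median was -0.36 as fitted and -0.41 after GC correction. None passed as fitted, 20 were lower at an unadjusted p under 0.05 (3.3% of all genes), and 18 passed lower after the correction (2.65%). The 18 became 16 with a replicate block added to the correction and 11 with a block within time point. RAD54L, a motor protein of strand exchange, held 47.0 to 52.8 CPM in untreated control, 44.6 to 49.1 CPM in untreated knockdown, 30.6 to 32.0 CPM in treated control and 20.2 to 22.6 CPM in treated knockdown cells. The difference was -0.49 (SE 0.095, adjusted p = 0.168) for RAD54L and -0.47 (SE 0.098, adjusted p = 0.175) for RMI2, a partner of the BLM helicase. RMI2 had no called response in the control (-0.12, adjusted p = 0.238) and fell in the knockdown (-0.59, adjusted p = 6.97e-05).

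Genes of G2 and mitosis, 51 tested, had a smaller median of -0.21 as fitted and -0.25 after GC correction. Fulvestrant lowered 49 of them in the control and all 51 in the knockdown, with median responses of -0.61 and -0.85. The shares of all genes that fell were 14.3% and 19.6%. None of the differences passed as fitted, 17 were lower at an unadjusted p under 0.05 (3.3% of all genes) and 32 passed lower after the correction (2.65%). Without pLKO1 fulvestrant replicate 3 the median was -0.13, and the count of 17 was 9 without shp53 fulvestrant replicate 1 and 29 without pLKO1 untreated replicate 1. The 32 that passed after the correction became 20 with a replicate block and 17 with a block within time point. NUF2 and MAD2L1, which act at kinetochores, had differences of -0.34 (adjusted p = 0.243) and -0.29 (adjusted p = 0.271). In the list of E2F, RB and G1 kinase genes, 18 of 24 were below 0, with a median of -0.25 as fitted and -0.16 after the correction. None passed as fitted and 4 passed lower after it (2.65% of all genes), or 2 with a replicate block and 1 with a block within time point. Among the 4 was E2F8, a late-cycle repressor (-0.36, adjusted p = 0.192 as fitted and 0.0083 after). CDK4 was -0.23 (adjusted p = 0.41) and -0.18 (adjusted p = 0.713). In a bulk sample fewer cells of a kind, such as cells in S phase, and less RNA per cell cannot be told apart.

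**Figure D5:**
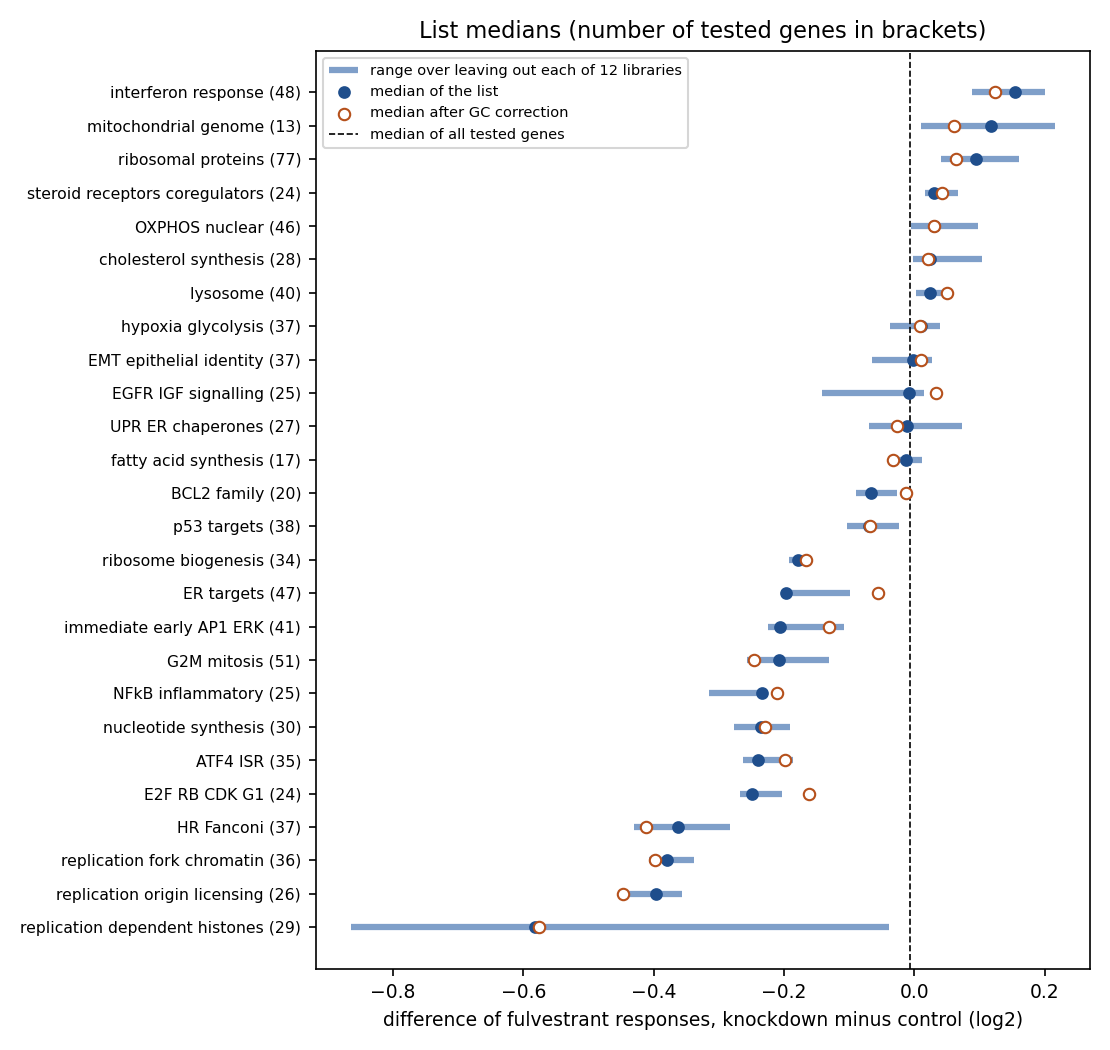
Median difference of responses (log2) of each of 26 gene lists, with the range over fits that left out each library (bar) and the median after GC correction (open circle). The dashed line is the median of all tested genes, and the licensing, fork and recombination lists lie below -0.28 in every such fit, while the histone list spans -0.86 to -0.04.

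Stress genes had another pattern, since most of them rose in the control. ATF4 is the transcription factor of the integrated stress response and induces amino acid transport and synthesis. Of 35 tested targets, 23 rose in the control (13.4% of all genes did) and 15 in the knockdown (21.3%), with median responses of 0.46 and 0.22. The difference was below 0 for 34 of 35, with a median of -0.24 as fitted and -0.20 after GC correction. None passed as fitted, 7 were lower at an unadjusted p under 0.05 (3.3% of all genes) and 10 passed lower after the correction (2.65%). The count of 7 was 2 without shp53 fulvestrant replicate 1 and 14 without pLKO1 fulvestrant replicate 3, and the 10 became 6 with a replicate block.

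SLC7A11, the cystine transporter, stood at 28.2, 23.6 and 22.7 CPM in untreated control and 34.9, 32.1 and 31.2 CPM in untreated knockdown cells. Treated libraries held 42.6, 42.4 and 53.2 CPM in the control and 42.1, 45.1 and 42.6 CPM in the knockdown. The untreated groups were apart and the treated groups overlapped. Its difference was -0.49 (SE 0.149, adjusted p = 0.376), and -0.53 (adjusted p = 0.00188) after GC correction. PSAT1, of serine synthesis, rose by 0.53 in the control and 0.26 in the knockdown on the log2 scale, a difference of -0.27 (adjusted p = 0.458), and -0.33 (adjusted p = 0.000476) after the correction. STC2, a secreted glycoprotein, spanned 205 to 305 CPM in treated control cells, a wide spread, and its difference was -0.56 (SE 0.194, adjusted p = 0.458), and -0.52 (adjusted p = 0.0299) after the correction.

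NFkB and inflammatory genes, 25 tested, had a median of -0.23 as fitted and -0.21 after GC correction, with 6 lower at an unadjusted p under 0.05 (3.3% of all genes), or 2 without pLKO1 untreated replicate 2. None passed as fitted and 4 passed lower after the correction (2.65%). SOD2, the mitochondrial superoxide dismutase, averaged 369 CPM in treated control and 313 CPM in treated knockdown cells from 215 and 221 CPM untreated. Its difference was -0.28 (adjusted p = 0.371), and -0.33 (adjusted p = 0.00417) after the correction. IL8, a neutrophil chemokine, had a difference of -0.49 (adjusted p = 0.415), and -0.53 (adjusted p = 0.00235) after it.

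Interferon response genes had a median above that of all genes. Of 48 tested, 31 were above 0 (7666 of all 15715 genes), and the median was 0.15 as fitted and 0.12 after GC correction. None passed as fitted, while 10 were higher and 0 lower at an unadjusted p under 0.05 (4.15% and 3.3% of all genes). After the correction 7 passed higher (1.11% of all genes did). Without pLKO1 fulvestrant replicate 2 the median was 0.089, and 2 members passed in place of 7 when a replicate block was added to the correction. Fulvestrant raised 13 of them in the control (13.4% of all genes) and 21 in the knockdown (21.3%), so calls were also more frequent over all genes in the knockdown. MX1, an antiviral GTPase, was 22.5, 20.8 and 22.9 CPM in untreated and 21.8, 21.7 and 21.4 CPM in treated control cells. In the knockdown it was 15.3, 13.9 and 14.9 CPM untreated and 19.4, 20.6 and 17.9 CPM treated. The control groups overlapped, while in the knockdown every treated library was above every untreated one and still below the control. The difference was 0.42 (SE 0.0995, adjusted p = 0.225), and 0.40 (adjusted p = 0.0406) after the correction. RSAD2, the antiviral enzyme viperin, was 0.49 (SE 0.121, adjusted p = 0.249), and 0.44 (adjusted p = 0.026) after it.

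Known p53 targets had a median close to that of all genes. Of 38 tested, 13 were above and 25 below 0 (7666 and 8049 of all 15715 genes), with a median of -0.07 as fitted and after GC correction. None passed as fitted, and 3 were higher and 3 lower at an unadjusted p under 0.05 (4.15% and 3.3% of all genes). CDKN1A, the cell cycle inhibitor p21, was low in all groups at 8.68 ± 0.871 and 11.4 ± 1.302 CPM in the control and 6.32 ± 0.705 and 6.94 ± 0.645 CPM in the knockdown (SD, n = 3). Its difference was -0.26 (SE 0.178, 95% interval -0.66 to 0.13, adjusted p = 0.859), and that of MDM2, the ligase that degrades p53, -0.11 (SE 0.0988, 95% interval -0.33 to 0.11, adjusted p = 0.917). After the correction AEN, a nuclease, was the 1 member that passed lower (-0.58, adjusted p = 0.0428), beside 2.65% of all genes. Another 2 members passed higher (1.11% of all genes).

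Just outside the threshold lay SLC43A3, a purine transporter (-0.54), GINS4, POLA2 and TGFBI, each with an adjusted p of 0.0932. TGFBI, a matrix protein induced by TGF beta, was 317, 306 and 294 CPM in untreated control and 269, 274 and 247 CPM in untreated knockdown cells. With fulvestrant it was 497, 505 and 495 CPM in the control and 581, 601 and 589 CPM in the knockdown. The order of the lines was therefore reversed between times, as with CDH6, without overlap. The difference was 0.46 (SE 0.07), and 0.43 (adjusted p = 0.000476) after GC correction. IGFBP3 (0.47) and THBS1 (-0.36), both secreted, and BRI3BP (-0.39), CCDC80 (0.51), SPTLC3 (0.75) and RARRES3 (0.64) each had an adjusted p of 0.1095. CD24P4 (0.50, adjusted p = 0.108) is a copy of CD24. CD24 itself had no entry in the deposited table, so it is uncertain which of the copies the reads of this entry came from.

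The 591 genes that passed after GC correction were sorted by their 2 responses in the corrected fit, which called 43.2% of all genes in the control and 54% in the knockdown. Of the 417 lower, 374 had a larger fall in the knockdown, and for 362 of them the fall passed in both lines. A smaller rise was found for 21 and responses of opposite sign for 22. Of the 174 higher, 155 had a larger rise in the knockdown, passing in both lines for 144, while 3 had a smaller fall and 16 responses of opposite sign. INHBA, the activin A subunit, is an example of a smaller rise, with 124, 119 and 114 CPM in untreated and 157, 168 and 165 CPM in treated control cells. In the knockdown it was 123, 119 and 116 CPM untreated and 125, 133 and 128 CPM treated. The lines overlapped before treatment and not after it. Its difference was -0.35 as fitted (adjusted p = 0.175) and -0.41 after the correction (adjusted p = 0.000535). MID1, a microtubule-associated ubiquitin ligase, had 107 to 116 CPM in all control libraries and rose in the knockdown from 108 to 114 CPM to 140 to 144 CPM. Its difference was 0.37 (adjusted p = 0.168), and 0.31 (adjusted p = 0.00139) after the correction. MTHFD2, of mitochondrial folate metabolism, had responses of 0.16 and -0.08, neither past the threshold as fitted, and a difference of -0.24 (adjusted p = 0.576), and -0.30 (adjusted p = 0.000659) after the correction.

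Markers of other cell types stayed few. Of 10 fibroblast markers 7 were under 1 CPM in every library, with COL3A1, LUM and POSTN at 0, and the list summed to 91.5 to 256 CPM, mostly THY1. That sum was 229.7 to 256 CPM in untreated and 91.5 to 119 CPM in treated libraries of either line. THY1 responses were -1.24 in the control and -1.35 in the knockdown, a difference of -0.11 (SE 0.143, adjusted p = 0.918). FAP rose in both lines, by 0.58 in the control and 1.14 in the knockdown (log2, means of 6.64 to 9.94 CPM and 4.002 to 8.797 CPM). Its difference was 0.55 (SE 0.152, unadjusted p = 0.00401, adjusted p = 0.294), and 0.51 (adjusted p = 0.0638) after GC correction. Of 11 leukocyte markers 8 were under 1 CPM in every library, CD3D, MS4A1 and NKG7 were at 0, and the sum of 58.1 to 80.2 CPM was mostly CD68. Of 9 measured endothelial and mesothelial markers 5 were tested, CLDN5 was at 0 and the sum was 27.6 to 57.4 CPM. After GC correction CDH5 passed higher (0.73, adjusted p = 0.0318) and CALB2 lower (-0.38, adjusted p = 0.0304).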

How the data were processed

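RNA from 12 PEO1 libraries was sequenced after stranded mRNA library preparation, per the labels' protocols. The deposited table holds expected counts per gene, stored as whole numbers. The submitters' processing notes name cutadapt, Bowtie2, MultiQC and RSEM 1.3.3 and the builds GRCh37 and hg19. Bowtie2 with RSEM shares reads among similar transcripts, so close copies are uncertain. Of the table's value columns, 6 matched no sample used here and were not analysed here.

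Entries passing edgeR's filter by group (minimum count 10) were scaled by TMM and fitted with 1 mean per group over all 12 libraries (edgeR 4.0.16, R 4.3.3, robust quasi-likelihood test). The Benjamini-Hochberg adjustment ran over all 15715 genes, with a threshold of 0.05. CPM values use TMM-scaled totals. SE values come from the fitted model, and intervals cover 95%. The script was tested on simulated data.

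GC content was the mean of an entry's transcripts in a GENCODE transcript file (97.8% of tested genes), and each library's trend was removed as an offset by a lowess smoother (span 0.3). Genes without a GC value stayed uncorrected. The contrast members and the 26 gene lists and 4 marker lists were chosen with earlier results of these data known. The gene targeted by the hairpin and 1 other gene that the naming rule picks are not reported here. Genes named were ESR1, PGR, GREB1, CDKN1A and MDM2, the 8 of smallest p per direction at mean log2 CPM of at least 3, the 2 of smallest p per list at mean log2 CPM of at least 1, and, by a rule added after the data were seen, the 2 of smallest p per class after GC correction. Members of complexes were named as whole sets. Alternatives included DESeq2 1.42.0 and limma 3.58.1. Promoters came from RefSeq (GRCh38.p14), matched by symbol. No coordinates of the authors' build are given.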

Additional observations from a re-analysis of the deposited data

Results flagged for a closer look

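The fulvestrant response differed between the 2 lines by edgeR's interaction test with Benjamini-Hochberg adjustment for 4 genes. The difference, knockdown minus control on the log2 scale, was 0.80 for CYP24A1 (adjusted p = 0.0277), -0.75 for GREB1 (adjusted p = 0.0478), 0.62 for CDH6 (adjusted p = 0.0478) and -0.60 for SH3KBP1 (adjusted p = 0.0265). Each was named because the test of the difference itself passed.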

How the results depend on the processing

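The number of genes whose responses differed, 4 as fitted, depended on the setting. It was 45 with DESeq2 (5181 genes without an adjusted p), 2 with limma voom, 3 with RLE size factors, 2 without robust estimation, 14 with a stricter low-count filter, 0 with upper quartile scaling (925 at an unadjusted p under 0.05) and 0 with no filter (1157 unadjusted). Leaving out 1 library gave 0 to 7, with 884 to 2284 at an unadjusted p under 0.05. It was 591 after GC correction and, chosen after seeing the data, 62 without the 4 libraries of lowest GC trend. Replicate numbers did not pair the libraries: 7 of 18 same-numbered deviations correlated above 0.1 (range -0.631 to 0.456), in no pair of groups all 3. With a replicate block 0 genes passed (914 unadjusted), and with a block within time point 0 (1087 unadjusted). GC correction with a replicate block gave 344, and with a block within time point 212. The 591 genes became 342 to 661 on leaving out 1 library (5 of the 12 fits gave 342, 374, 382, 388 and 393), 665 without the 4 libraries, 553 with a span of 0.5, 590 with RLE and 603 with the stricter filter, these chosen after seeing the data. The control response rose from 4363 to 6791 genes with GC correction. Over genes of mean log2 CPM of at least 3 the likeness of the responses was 0.918 (Pearson), 0.917 (Spearman) and 1.29 (slope). Signs turned for 3 of the named genes, none past the threshold as fitted. ZNF703 was -0.05 as fitted, 0.37 after GC correction and with it plus a replicate block, 0.36 (0.3647) with the block within time point, and -0.34 to 0.33 on leaving out 1 library. CD68 was 0.02 as fitted, -0.000543 with no filter, and -0.071 to 0.096 on leaving out 1 library. CD14 was -0.45 as fitted and -0.84 to 0.072 on leaving out 1 library, the highest without pLKO1 fulvestrant replicate 1. The cause was not tested. Depth limits genes of low count.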

Other observations

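TXNIP, the thioredoxin-interacting protein, rose from 30.7 to 130 CPM in the control and from 32.4 to 204 CPM in the knockdown, and its difference of responses was 0.57 (SE 0.13, adjusted p = 0.21 by edgeR), and 0.52 (adjusted p = 0.0031) after GC correction. ARRDC4, of the same arrestin family, had a difference of 0.61 (SE 0.201, adjusted p = 0.415). FN1, fibronectin, rose from 2643 to 2831 CPM to 6114 to 6439 CPM in the control and from 3011 to 3293 CPM to 8785 to 9355 CPM in the knockdown, a difference of 0.32 (adjusted p = 0.21), and 0.27 (adjusted p = 0.00102) after GC correction. KRT4, an epithelial keratin, averaged 12.0 CPM untreated and 10.7 CPM treated in the control, a response that did not pass the threshold (adjusted p = 0.435), and rose from 9.34 to 16.9 CPM in the knockdown. Its difference was 1.02 (SE 0.196, adjusted p = 0.168), and 1.01 (adjusted p = 0.00422) after GC correction.

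Among the other lists, cholesterol synthesis (28 tested) had a median difference of 0.02, with median responses of -0.60 and -0.54 in control and knockdown. Ribosomal proteins (77) had 0.09, genes of the mitochondrial genome (13) 0.12, chaperones of the unfolded protein response (27) -0.01 and lysosomal genes (40) 0.02, with 0 members past the threshold as fitted in each. After GC correction 1 chaperone gene and 1 cholesterol synthesis gene passed lower (2.65% of all genes), and 1 lysosomal gene passed higher (1.11%). The ribosomal protein and mitochondrial genome lists had 0. Ribosome biogenesis genes (34) stood at -0.18, with 7 passing lower after GC correction (2.65% of all genes did), among them NOLC1 at -0.33 (adjusted p = 0.000476). The 7 became 6 with a replicate block added to the correction and 2 with a block within time point. Immediate early genes (41) stood at -0.21 as fitted and -0.13 after GC correction, with 4 passing lower after it (2.65% of all genes). That count of 4 was 1 when a replicate block within time point was added to the correction. The medians were 0.03 for steroid receptors and coregulators, 0.03 for nuclear genes of oxidative phosphorylation, 0.01 for hypoxia and glycolysis, -0.002 for epithelial identity, -0.01 for EGFR and IGF signalling, -0.01 for fatty acid synthesis and -0.07 for the BCL2 family, with 0 members past the threshold as fitted in each. After GC correction 2 of 24 steroid receptors and coregulators passed higher, as did 2 of 37 hypoxia and glycolysis genes and 3 of 37 epithelial identity genes. The 2 steroid receptors and coregulators became 1 with a replicate block added to the correction and 0 with a block within time point. EGFR and IGF signalling had 2 higher and 3 lower of 25, and fatty acid synthesis had 1 lower of 17. The oxidative phosphorylation and BCL2 lists had 0. Over all genes 1.11% passed higher and 2.65% lower. Replication-dependent histones (29) had the lowest median, -0.58, but it spanned -0.86 to -0.04 when single libraries were left out, and 0 members passed with or without GC correction. Only 21 of the 29 had a GC value, so the others stayed uncorrected in that fit. With the stricter low-count filter 13 of these histone genes remained and their median was -0.12. At an unadjusted p under 0.05, 1 of the 29 was higher and 0 lower (4.15% and 3.3% of all genes).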
